A study of Mus musculus with 33 samples.

Results

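The mitochondrial solute carriers of the Slc25 family were described in heart muscle cell RNA from mice of lines that lack Ptpmt1. The members are the genes whose symbol is Slc25a followed by a number. There were 47 of them among the 32245 genes of each deposited table, and all 47 had a gene of that name in the GENCODE annotation. A member was tested where enough libraries of its table had a normalized count of 10, enough being the size of the smallest group, which left 39 members in the FST line, 42 in PHT and 40 in PTGC. Line names are those of the sample titles, and the labels do not spell them out.

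By label the RNA is nuclear and the cells are cardiomyocytes, and in every line the Ptpmt1 knockout is specific to cardiomyocytes. Ptpmt1 is a phosphatase of the inner mitochondrial membrane needed for the synthesis of cardiolipin. The FST table holds 3 libraries each of the double mutant with Ptpmt1 knockout and Eif2a mutation, the Ptpmt1 knockout only, the Eif2a (Eif2alpha) mutant only, and control. The PHT table holds 2 doubles with Ptpmt1 and Hri knockout, 3 with the Ptpmt1 knockout only, 2 with the Hri knockout only, which the labels call cardiomyocyte-specific, and 2 controls. The PTGC table holds 3 doubles with Ptpmt1 and Gcn2 knockout and 3 controls, with neither single mutant, so an effect of Gcn2 loss cannot be told apart from one of Ptpmt1 loss there. Hri and Gcn2 are kinases that phosphorylate the alpha subunit of eIF2, which starts the integrated stress response. The labels do not give the alleles of the controls, the Cre driver, the ages or whether animals were pooled. The 6 samples of a line with the Ptpmt1 knockout alone are not analysed here, which left 27 libraries.

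Slc25 proteins are encoded in the nucleus and nearly all sit in the inner mitochondrial membrane, where each exchanges or imports a small group of solutes. They let ADP and phosphate in and ATP out, carry the aspartate and oxoglutarate of the malate-aspartate shuttle, bring in acylcarnitines for fatty acid oxidation, and supply the matrix with nucleotides, cofactors, amino acids, glutathione and iron. Cardiomyocytes depend on mitochondrial ATP for contraction, and the muscle form of the ADP/ATP carrier, Slc25a4, is known as a major protein of heart mitochondria.

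Libraries held 1887978 to 12583868 reads in genes in FST, 10739569 to 19405261 in PHT and 10795644 to 19326112 in PTGC. Ptpmt1 had a normalized count of 45.2 ± 4.87 in FST doubles and 35.5 ± 4.71 in FST Ptpmt1 knockouts, against 157 ± 6.69 in Eif2a mutants and 163 ± 10.3 in controls (SD, n = 3 each), and it was lower in the same way in PHT and PTGC. All 12 cardiomyocyte markers were above 0 in every library, as were the erythroid, fibroblast and endothelial markers in the tables, so presence alone does not set the cells apart. The cardiomyocyte markers held 6.40 to 8.53% of the FST signal, 5.75 to 7.21% in PHT and 6.87 to 8.73% in PTGC, against 0.0456 to 0.581% for the erythroid, 0.112 to 0.287% for the fibroblast and 0.0808 to 0.117% for the endothelial markers over all libraries. FST double 2, Eif2a mutant 1, control 3 and Ptpmt1 knockout 3 stood apart. Double 2 did so by its depth of 1887978 reads. Eif2a mutant 1 did so by its 15157 genes with reads, against 15336 in double 2 and 17567 or more elsewhere. FST control 3 and Ptpmt1 knockout 3 did so by their distance from the other libraries of their groups. This distance, chi-square per degree of freedom of reads between 2 libraries, was 15.9 and 13.9 for FST control 3. It was 20.7 and 18.5 for FST Ptpmt1 knockout 3. PTGC control 3 was at 26.7 and 39.6, and PTGC double 2 was at 20.7 and 14.2. This distance grows with read depth, so it does not rank libraries of unlike depth. FST Ptpmt1 knockout 3 and control 3 were the deepest FST libraries, at 12583868 and 11277025 reads. A male expression pattern was present in 2 of 2 PHT doubles and 2 of 2 Hri knockouts. It was present in 1 of 3 PHT Ptpmt1 knockouts and 0 of 2 controls. In PHT, sex and the Hri knockout therefore cannot be told apart in comparisons with control, and sex was uneven between doubles and Ptpmt1 knockouts. In FST all Ptpmt1 knockouts and Eif2a mutants had the male pattern, as did doubles 2 and 3 but only control 1. Sex was thus uneven in FST comparisons with control too. In PTGC all libraries but control 1 and double 3 had it. Nothing in the labels says that libraries of a group came from separate animals, so p-values rest on variation between libraries. For limma this variation was pooled over all groups of a table and drawn toward a trend over genes.

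The ADP/ATP carriers and the phosphate carrier dominated the family. All 47 members together held 0.292 to 0.331% of the signal in FST libraries, 0.306 to 0.344% in PHT and 0.297 to 0.35% in PTGC. Slc25a4, Slc25a3 and Slc25a5 made up 54.3 to 59.9% of that in each library. Normalized count per kilobase of exons, the length being the union of a gene's annotated exons, put Slc25a4 first in the controls of every table. It held 39.1% of the family's summed level per kilobase in FST controls, 34.6% in PHT controls and 38.1% in PTGC controls. Slc25a5, the ADP/ATP carrier of most other tissues, followed with 17.8, 21.8 and 19.2%, then Slc25a3, the phosphate carrier, with 10.4, 10.4 and 10.6%, and Slc25a11, the oxoglutarate carrier, with 5.83, 5.05 and 5.5%. This order of the first 4 was the same in the 3 tables. It depends on the exon lengths, which are 5550 bases for Slc25a3 and 1646 for Slc25a5. By normalized count Slc25a3 was above Slc25a5 in controls, at 4704 against 2380 in FST. In PHT controls it was at 7678 against 4760, and in PTGC controls at 8407 against 4545. The ranges of Slc25a4, Slc25a5, Slc25a3 and Slc25a11 over control libraries did not overlap in any table. Slc25a39, a glutathione carrier, and Slc25a13, an aspartate-glutamate carrier, were next, in that order in FST and PHT and the other way round in PTGC, where their ranges overlapped.

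**Figure D1:**
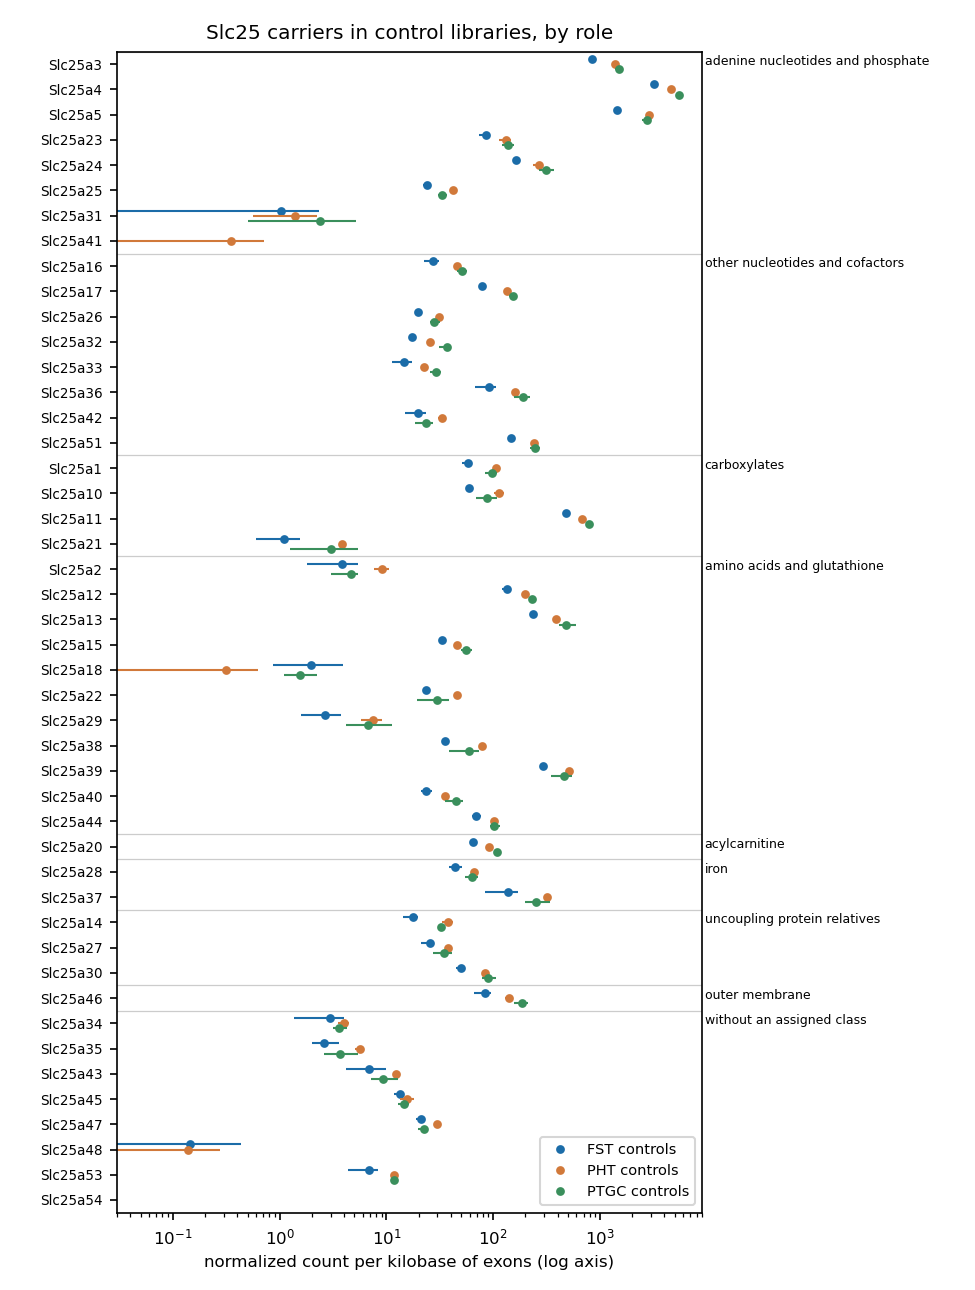
Normalized count per kilobase of exons (log axis) of the carriers shown in control libraries of FST (n = 3), PHT (n = 2) and PTGC (n = 3), grouped by role. Points are means and lines run from the lowest to the highest library, cut at the left edge. Slc25a4 is highest in every table, and members listed at 0 in all controls of a table have no point there. The tables were normalized separately, so the shift between colours is no difference between lines.

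At the other end, Slc25a54 was listed at 0 in all 27 libraries. Slc25a41, an ATP-Mg/phosphate carrier, had at most 1 normalized count, in 1 PHT Ptpmt1 knockout, and Slc25a48 had at most 5.71, in 1 PHT double. Slc25a31, the ADP/ATP carrier known from testis, and Slc25a18, a glutamate carrier, stayed below the level for testing in all 3 tables. Slc25a2, an ornithine carrier, and Slc25a34 were tested only in PHT, and Slc25a21, the oxodicarboxylate carrier, only in PHT and PTGC.

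Only 1 member, the pyrimidine nucleotide carrier Slc25a33, was called in any of the 13 comparisons with all libraries in. Called means a Benjamini-Hochberg adjusted p under 0.05 over all genes tested, from limma on log2(normalized count + 1), a scale that understates changes of low genes. In PTGC doubles against controls, 1 of 40 members was called, against a background of 0.743% of all genes, and 5 had an unadjusted p under 0.05 (background 11.5%). edgeR also called 1 of 40 (background 0.736%), and DESeq2 1 of 40 (background 1.27%). In FST Ptpmt1 knockouts against controls limma called 0 of 39 members (background 0.504%), with 3 at an unadjusted p under 0.05 (background 13.4%). In PHT Ptpmt1 knockouts against controls it called 0 of 42 (background 0.301%), with 3 at an unadjusted p under 0.05 (background 4.79%). Ranges of the groups did not overlap for 5 of 39 members in the FST knockout (background 19.1%), 9 of 42 in the PHT knockout (background 23.6%) and 6 of 40 in the PTGC double (background 18%). Overlap is also described below for other comparisons, without a background over all genes, and is no support for a change there. The 95% interval of the change lay within 1.5-fold either way for 26 of 39 members in the FST knockout (58% of all genes), 29 of 42 in the PHT knockout (66%) and 29 of 40 in the PTGC double (65.9%).

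With the second mutation no member was called in FST or PHT either. For FST doubles limma called 0 of 39 members against the Ptpmt1 knockout (background 0.878%), 0 against the Eif2a mutant (0.0072%) and 0 against control (0.144%), with 3, 1 and 5 members at an unadjusted p under 0.05 (backgrounds 13.8, 8.14 and 10.1%). The Eif2a mutant against control gave 0 (0.036%) with 3 at an unadjusted p under 0.05 (7.97%). For PHT doubles it called 0 of 42 against the Ptpmt1 knockout (0.327%), 0 against the Hri knockout (0.02%) and 0 against control (0.0267%), with 6, 2 and 0 members at an unadjusted p under 0.05 (8.29, 5.83 and 6.58%). The Hri knockout against control gave 0 (0.02%) with 1 at an unadjusted p under 0.05 (3.24%). The interaction, which is the effect of Ptpmt1 loss with the second mutation minus its effect without it, gave 0 of 39 in FST (0.0216%) and 0 of 42 in PHT (0.12%), with 3 and 6 members at an unadjusted p under 0.05 (7.06 and 4.64%). edgeR and DESeq2 called 0 members in each of these 12 comparisons of FST and PHT. The edgeR backgrounds were 0.662% in the FST Ptpmt1 knockout, 0.0432% in the Eif2a mutant and 0.151% in the double against control, 0.9% and 0.0072% in the double against the Ptpmt1 knockout and the Eif2a mutant, and 0.036% in the interaction. In PHT they were 0.301% in the Ptpmt1 knockout, 0.02% in the Hri knockout and 0.0267% in the double against control, 0.347% and 0.0134% in the double against the Ptpmt1 knockout and the Hri knockout, and 0.1% in the interaction. The DESeq2 backgrounds in that order were 5.56, 0.383, 0.697, 2.47, 0.362 and 0.23% in FST and 0.461, 0.0267, 0.0802, 0.702, 0.0781 and 0.254% in PHT. DESeq2 gave an adjusted p to only 14 of 39 members in the FST knockout against control and in the FST double against the Eif2a mutant. Median log2 fold changes of the members lay between -0.05 and 0.07 in the 13 comparisons, beside -0.01 to 0.01 for all genes.

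**Figure D2:**
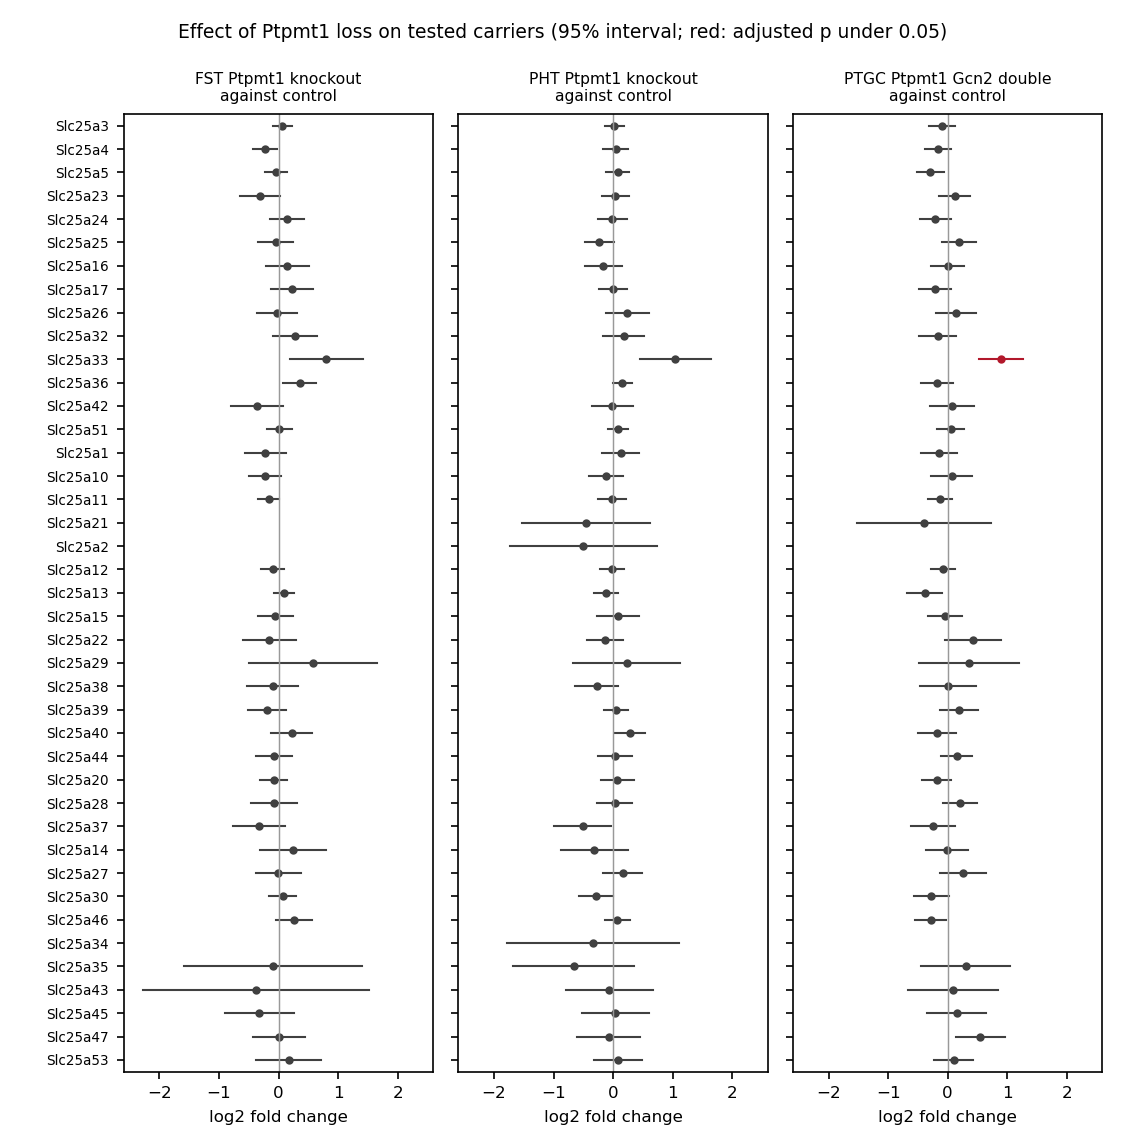
Log2 fold change of the tested carriers shown, on the log2(normalized count + 1) scale, in FST Ptpmt1 knockouts against controls (n = 3 each), PHT Ptpmt1 knockouts against controls (n = 3 and 2) and PTGC doubles against controls (n = 3 each). Points are estimates, bars are 95% intervals, and red marks the 1 called value, Slc25a33 at 0.89 in PTGC. Wide intervals belong to members with low counts.

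Slc25a33 carries pyrimidine nucleotides across the inner membrane, and is known as a supplier of nucleotides for mitochondrial DNA and RNA synthesis. It lies on chromosome 4, 149744036 to 149774277, minus strand (GRCm38, GENCODE; ENSMUSG00000028982). In PTGC it had 104, 98 and 105 normalized counts in the doubles, against 60.9, 48.1 and 55.5 in the controls. Every double was above every control. The means were 102 ± 3.79 and 54.8 ± 6.42 (SD, n = 3 each), a log2 fold change of 0.89 ± 0.17 (SE, 95% interval 0.52 to 1.26). The adjusted p was 0.0346 by limma, 0.0361 by edgeR and 0.0125 by DESeq2. The call was lost with no filter on low genes (adjusted p = 0.0640), with a term for sex (0.0696), without control 1 (0.0868) and without double 1, 2 or 3 (0.227, 0.152 and 0.230), while the log2 fold change stayed between 0.80 and 0.97. Gm13068, a gene on the opposite strand that shares 281 exon bases with Slc25a33, was listed at 0 in all 27 libraries, and whether the counting used strand is not stated in the labels.

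In FST Slc25a33 had 55.3, 30.9 and 44.5 normalized counts in the doubles, 45.3, 37.0 and 64.4 in the Ptpmt1 knockouts, 43.1, 43.5 and 47.2 in the Eif2a mutants and 21.4, 32.4 and 27.9 in the controls. All 3 Ptpmt1 knockouts and all 3 Eif2a mutants were above all controls, and double 2, the shallow library, was within the control range. None of these changes was called. The log2 fold change against control was 0.64 ± 0.29 in the double (adjusted p = 0.465), 0.80 ± 0.29 in the Ptpmt1 knockout (0.232) and 0.71 ± 0.29 in the Eif2a mutant (0.566). The double against the Ptpmt1 knockout was at -0.16 ± 0.29 (adjusted p = 0.837), and the interaction was -0.87 ± 0.40 (adjusted p = 0.700). The sign of the double against the Ptpmt1 knockout turned without Ptpmt1 knockout 3 (0.05) or without double 2 (0.06).

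In PHT Slc25a33 had 53.0 and 47.6 normalized counts in the doubles, 66.0, 96.4 and 111 in the Ptpmt1 knockouts, 41.6 and 64.6 in the Hri knockouts and 42.4 and 42.9 in the controls. The 3 Ptpmt1 knockouts were above every other PHT library, and the doubles lay within the range of the Hri knockouts. The Ptpmt1 knockout against control gave 1.05 ± 0.28 (95% interval 0.45 to 1.64, adjusted p = 0.310) and the double against the Ptpmt1 knockout -0.81 ± 0.28 (-1.41 to -0.22, adjusted p = 0.388). The interaction was -1.09 ± 0.41 (adjusted p = 0.998), so none of the 3 was called. Slc25a33 is a low gene among the carriers: its control level was 27.2 ± 5.54 in FST, 42.7 ± 0.389 in PHT and 54.8 ± 6.42 in PTGC.

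**Figure D3:**
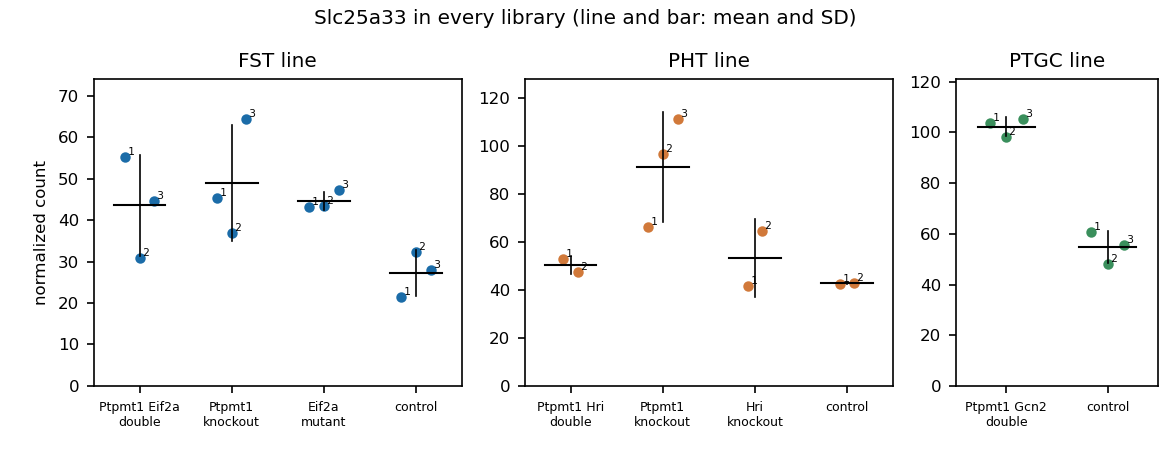
Normalized count of Slc25a33 in every library of the 3 lines, numbered by replicate within a group; lines are means and bars SD (n = 3 per group in FST and PTGC, and 2, 3, 2 and 2 from left to right in PHT). The 3 PTGC doubles lie between 98 and 105, all above the PTGC controls, and in PHT the Ptpmt1 knockouts lie above the doubles, Hri knockouts and controls.

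Slc25a36, the other pyrimidine nucleotide carrier of the family, had a higher level per kilobase than Slc25a33 in the controls of every table and was not called. It had 1674, 1611 and 1476 normalized counts in PTGC doubles, against 1844, 1511 and 2095 in controls, and the groups overlapped (-0.18 ± 0.12, adjusted p = 0.526). In FST it had 1194, 1106 and 1023 in the Ptpmt1 knockouts, against 978, 1020 and 648 in the controls, with control 3 the lowest (0.35 ± 0.13, adjusted p = 0.249). In PHT it was at 0.15 ± 0.08 in the Ptpmt1 knockout against control. Per kilobase of exons, the ratio of Slc25a33 to Slc25a36 was 0.329 ± 0.029 in PTGC doubles and 0.155 ± 0.018 in controls (SD, n = 3 each), and no double overlapped a control. In PHT that ratio was 0.156 ± 0.001 in doubles, 0.270 ± 0.067 in Ptpmt1 knockouts, 0.163 ± 0.056 in Hri knockouts and 0.141 ± 0.005 in controls (n = 2, 3, 2 and 2). In FST it was 0.238 ± 0.064 in doubles, 0.228 ± 0.081 in Ptpmt1 knockouts, 0.247 ± 0.018 in Eif2a mutants and 0.164 ± 0.054 in controls (n = 3 each). FST doubles and Ptpmt1 knockouts overlapped the controls, and the Eif2a mutants did not.

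The promoters of this pair are shown because Slc25a33 is the called member, and that of Asns as an example of a match to the first motif searched, chosen after the matches were known. Sequences are from RefSeq (GRCm38.p6), 250 bases before to 50 bases after the start, all on the minus strand and written 5′ to 3′. In Asns, asparagine synthetase, capitals mark a match to TGATGNAAN, the core of the element through which Atf4 is known to act. In Slc25a33 and Slc25a36 capitals mark ACGTCA, the core of the cAMP response element, on either strand.
Asns, chr6:7693160-7693459: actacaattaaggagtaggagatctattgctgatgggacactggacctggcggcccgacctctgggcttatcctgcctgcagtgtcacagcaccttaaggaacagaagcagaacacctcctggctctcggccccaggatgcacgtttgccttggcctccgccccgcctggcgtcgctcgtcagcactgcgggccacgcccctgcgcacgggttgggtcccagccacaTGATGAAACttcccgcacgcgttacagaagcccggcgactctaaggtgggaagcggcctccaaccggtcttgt
Slc25a33, chr4:149774218-149774517: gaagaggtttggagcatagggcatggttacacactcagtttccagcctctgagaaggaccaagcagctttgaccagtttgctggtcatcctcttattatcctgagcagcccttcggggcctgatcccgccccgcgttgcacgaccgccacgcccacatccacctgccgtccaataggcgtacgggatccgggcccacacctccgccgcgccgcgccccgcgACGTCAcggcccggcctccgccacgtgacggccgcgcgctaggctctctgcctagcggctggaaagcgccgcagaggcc
Slc25a36, chr9:97110992-97111291: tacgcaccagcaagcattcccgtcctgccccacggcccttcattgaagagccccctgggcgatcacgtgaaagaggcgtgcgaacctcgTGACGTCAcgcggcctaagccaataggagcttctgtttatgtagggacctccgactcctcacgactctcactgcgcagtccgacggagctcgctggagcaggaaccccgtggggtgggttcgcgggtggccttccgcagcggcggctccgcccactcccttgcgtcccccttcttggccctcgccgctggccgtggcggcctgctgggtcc

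Both strands were searched for TGATGNAAN and for TTNCATCA, which is the opposite-strand form of its first 8 letters. In the table of 32851 promoters of 300 bases, 3.95% held TGATGNAAN and 3.97% held TTNCATCA. Of the 47 members 36 had a promoter there, 46 promoters in all, and 0 of the 46 held either. Of the 5 genes of the stress response panel, all called higher in the same libraries, Asns and Trib3 had a match and Mthfd2, Atf4 and Atf5 had none. ACGTCA was added after the sequences had been read. It was present in 7.51% of all promoters and in 5 of the 46 member promoters, at 29 bases before the start in Slc25a33 and, once per strand with overlapping letters, at 161 and 159 bases before it in Slc25a36. A match is a run of letters and not a site shown to bind a factor.

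Among the carriers of adenine nucleotides and phosphate, 6 of 8 members were tested in each table and 0 were called in any comparison. Slc25a4 had 5896, 5929 and 7525 normalized counts in FST Ptpmt1 knockouts, against 7080, 7532 and 7872 in controls. Ptpmt1 knockouts 1 and 2 were below every control and Ptpmt1 knockout 3 was within their range (-0.22 ± 0.09, adjusted p = 0.309). In PHT it was at 11125 ± 63.8 in the Ptpmt1 knockout (n = 3) and 10820 ± 519 in control (n = 2), a log2 fold change of 0.04 ± 0.10 with a 95% interval of -0.16 to 0.25. In PTGC it was at 11518 ± 902 in the doubles and 12881 ± 411 in the controls (n = 3 each; -0.16 ± 0.10, adjusted p = 0.510). Slc25a5 had 3731, 3459 and 3940 normalized counts in PTGC doubles, against 4584, 4087 and 4964 in controls. Every double was below every control, by -0.29 ± 0.10 (adjusted p = 0.352). In the Ptpmt1 knockout against control Slc25a5 was at -0.04 ± 0.09 in FST and 0.07 ± 0.09 in PHT. Slc25a4 and Slc25a5 are close paralogs, and Slc25a5 has 1 pseudogene by name in the annotation, so some reads of these copies may have been split or lost.

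Slc25a3 had 5110, 5339 and 5302 normalized counts in FST doubles, 4919, 4830 and 4995 in Ptpmt1 knockouts, 4672, 5141 and 4911 in Eif2a mutants and 4659, 4993 and 4459 in controls. The 3 doubles were above every control, and the Ptpmt1 knockouts overlapped the controls. The Ptpmt1 knockout against control was at 0.06 ± 0.07 in FST (95% interval -0.09 to 0.22), 0.02 ± 0.07 in PHT (-0.14 to 0.18) and, for the double, -0.10 ± 0.10 in PTGC (-0.32 to 0.12). The ATP-Mg/phosphate carriers, which are activated by calcium, were at -0.31 ± 0.16 (Slc25a23), 0.14 ± 0.13 (Slc25a24) and -0.05 ± 0.14 (Slc25a25) in FST knockouts. In PHT knockouts Slc25a23 was at 0.04 ± 0.11, Slc25a24 at -0.01 ± 0.11 and Slc25a25 at -0.23 ± 0.11. In PTGC doubles they were at 0.12 ± 0.12, -0.21 ± 0.12 and 0.19 ± 0.13. Exons of Naif1, which had 44.4 to 130 normalized counts, overlap those of Slc25a25 by 379 bases on the opposite strand.

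One library decided the count in the FST knockout. Without Ptpmt1 knockout 3, 3 of 39 members were called against control, all lower: Slc25a4 (-0.34 ± 0.07, adjusted p = 0.0158), Slc25a23 (-0.54 ± 0.12, 0.0191) and the glutathione carrier Slc25a39 (-0.43 ± 0.10, 0.0269). The background was then 6.17% of all genes, against 0.504% with it. Calls thus rose over all genes, and the share of members called was near the background. Slc25a23 had 348, 279 and 503 normalized counts in the Ptpmt1 knockouts and 479, 498 and 393 in the controls. Slc25a39 had 582, 604 and 967 in the Ptpmt1 knockouts and 805, 756 and 835 in the controls. In both genes Ptpmt1 knockout 3 was above every control, while Ptpmt1 knockouts 1 and 2 were below every control. That library also had 22781 normalized counts over the 7 fibroblast markers, against 11957 and 11420 in Ptpmt1 knockouts 1 and 2, and 14502 over the erythroid markers, against 3799 and 4094. None of these markers was at 0, and their part in the result was not tested. With control 3 left out as well, an alternative chosen after the data had been seen, 3 members were called (background 4.95%): Slc25a37 (-0.83 ± 0.10, adjusted p = 0.000724), Slc25a23 (-0.65 ± 0.12, 0.00790) and Slc25a4 (-0.30 ± 0.07, 0.0245).

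**Figure D4:**
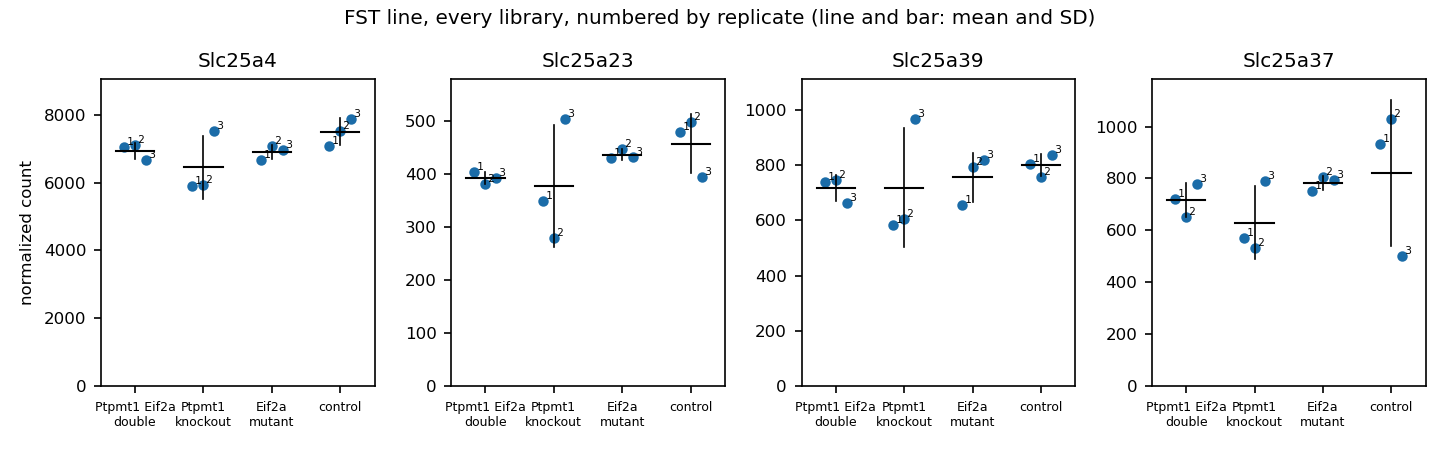
Normalized counts of Slc25a4, Slc25a23, Slc25a39 and Slc25a37 in every FST library, numbered by replicate (n = 3 per group); lines are means and bars SD. Ptpmt1 knockout 3 lies above Ptpmt1 knockouts 1 and 2 in each of the 4 genes, and control 3 is the lowest control for Slc25a23 and Slc25a37.

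The iron importer Slc25a37 (mitoferrin 1, chromosome 14, 69241848 to 69285112, minus strand, GRCm38) was called with some libraries left out. It supplies iron for haem and iron-sulphur clusters and is known chiefly from developing red cells. In PHT it had 2301 and 3315 normalized counts in the doubles, 1685, 1592 and 913 in the Ptpmt1 knockouts, 2683 and 1799 in the Hri knockouts and 1892 and 1955 in the controls. Both doubles were above, and all 3 Ptpmt1 knockouts below, both controls, while the Hri knockouts lay on either side of them. The double against the Ptpmt1 knockout was at 1.03 ± 0.22 (95% interval 0.56 to 1.51), with an adjusted p of 0.0779 by limma, 0.0729 by edgeR and 0.208 by DESeq2, so it was not called. It was called without Ptpmt1 knockout 1 (1.19, adjusted p = 0.0400, background 0.401%) and without double 1 (1.30, 0.0455, background 0.608%). Against control the PHT double was at 0.52 ± 0.24 (adjusted p = 0.755) and the Ptpmt1 knockout at -0.51 ± 0.22. In FST Slc25a37 had 721, 650 and 779 in the doubles, 569, 531 and 791 in the Ptpmt1 knockouts, 752, 805 and 793 in the Eif2a mutants and 931, 1029 and 501 in the controls. The Ptpmt1 knockouts lay within the wide control range (-0.34 ± 0.21, adjusted p = 0.509). In PTGC it had 1373, 1168 and 1215 in the doubles, against 1360, 2029 and 1185 in the controls (-0.25 ± 0.17, adjusted p = 0.529).

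Red cell transcripts varied together with Slc25a37 across libraries. The erythroid list has 12 genes, including globins and red cell membrane proteins but not Slc25a37, of which 11 were in the tables and none was at 0. The summed normalized count of the 11 genes was 45628 and 78635 in PHT doubles, 29188, 26031 and 6579 in Ptpmt1 knockouts, 57521 and 36557 in Hri knockouts and 44129 and 34933 in controls. The library with the lowest erythroid sum, Ptpmt1 knockout 3, also had the lowest Slc25a37, and double 2 had the highest of both. In bulk RNA, fewer cells of a type and less RNA per cell cannot be told apart. In PTGC the erythroid sum was 15708, 12077 and 13305 in doubles and 25456, 37230 and 14074 in controls. In FST it was 3799, 4094 and 14502 in Ptpmt1 knockouts and 12058, 16191 and 3780 in controls, so that the outlying libraries Ptpmt1 knockout 3 and control 3 stood on the side of the other group in both measures.

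Over the libraries of a table, log2 Slc25a37 and the log2 erythroid sum had a Pearson r of 0.897 in FST (n = 12, permutation p = 0.00015), 0.968 in PHT (n = 9, exact permutation p = 2.20e-05) and 0.912 in PTGC (n = 6, exact permutation p = 0.00972). Spearman's rho was 0.944 (permutation p = 2.0e-05), 0.950 (exact permutation p = 0.000353) and 0.886 (exact permutation p = 0.0333) in the same order of tables. Without the 2 libraries farthest from the median erythroid sum, r was 0.933, 0.924 and 0.862. These relations pool all genotype groups of a table, whose 2 or 3 libraries each are too few for a value within a group, and they were looked for after the values had been seen. Among 9 relations, with Slc25a28 and Slc25a38 beside Slc25a37, Benjamini-Hochberg adjusted p for r were 0.000675 in FST, 0.000198 in PHT and 0.0292 in PTGC for Slc25a37 by permutation. For rho they were 0.00018, 0.00159 and 0.1, the last above 0.05. Libraries were permuted across genotype groups, so a difference between groups in both measures can by itself give a small p. The adjustment covers the 9 relations and not the choice of these genes after the values had been seen. Slc25a28 (mitoferrin 2, the form of most other tissues) had r of 0.232, -0.345 and 0.0545, and Slc25a38, the glycine importer that feeds haem synthesis, 0.357, 0.638 and 0.681, with adjusted permutation p of 0.145 or more. Without the 2 farthest libraries r of Slc25a38 was 0.347 in FST, 0.341 in PHT and -0.0728 in PTGC, and r of Slc25a28 was 0.483, -0.575 and -0.176. Slc25a28 was at -0.08 ± 0.18 in FST knockouts, 0.02 ± 0.14 in PHT knockouts and 0.21 ± 0.13 in PTGC doubles against control.

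**Figure D5:**
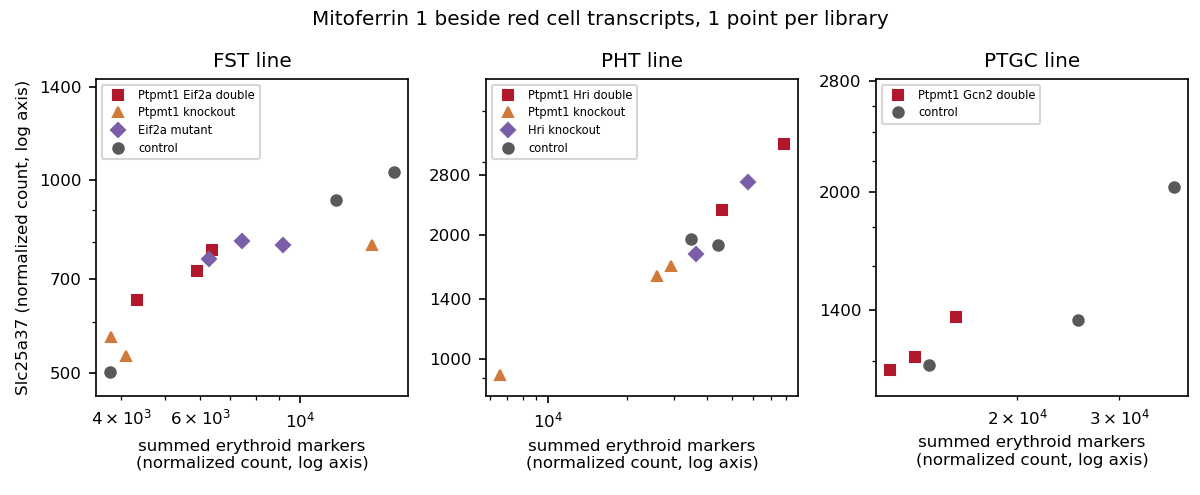
Slc25a37 (normalized count, log axis) against the summed normalized count of 11 erythroid markers (log axis), 1 point per library, in FST (n = 12), PHT (n = 9) and PTGC (n = 6). In controls most of the sum came from Hbb-y. Libraries with more red cell transcripts had more Slc25a37 in each table, with Pearson r of 0.897, 0.968 and 0.912 on log2 values.

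The carriers of cofactors and other nucleotides were all tested, 9 of 9 in each table. Apart from Slc25a33 in PTGC 0 were called in any comparison. The NAD+ carrier Slc25a51 was the most abundant of them per kilobase in controls of every table, at 0.01 ± 0.10 in FST knockouts (95% interval -0.20 to 0.22), 0.07 ± 0.08 in PHT knockouts (-0.09 to 0.24) and 0.05 ± 0.10 in PTGC doubles (-0.17 to 0.28). The coenzyme A carrier Slc25a42 was at -0.36 ± 0.21 in FST knockouts, -0.01 ± 0.16 in PHT knockouts and 0.07 ± 0.17 in PTGC doubles, and Slc25a16, also linked to coenzyme A, at 0.15 ± 0.17, -0.16 ± 0.15 and 0.00 ± 0.13 in the same comparisons. Slc25a32, which brings in folate for mitochondrial one-carbon metabolism, was at 0.28 ± 0.17, 0.18 ± 0.16 and -0.16 ± 0.14. In the same libraries Mthfd2, an enzyme of that folate pathway, was called higher in all 3 of these comparisons, with log2 fold changes of 1.88 ± 0.17, 1.69 ± 0.16 and 2.16 ± 0.10. The S-adenosylmethionine carrier Slc25a26 was at -0.02 ± 0.16, 0.24 ± 0.17 and 0.14 ± 0.15, and the peroxisomal member Slc25a17 at 0.23 ± 0.17, 0.00 ± 0.11 and -0.21 ± 0.13. Exons of Lrig1, which had 443 to 947 normalized counts, overlap those of Slc25a26 by 144 bases on the opposite strand.

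No carboxylate carrier was called in any comparison, with 3 of 4 tested in FST and 4 of 4 in PHT and PTGC. The citrate carrier Slc25a1 had 153, 119 and 145 normalized counts in FST doubles and 98.6, 103 and 118 in Ptpmt1 knockouts, and every double was above every knockout (0.38 ± 0.16, adjusted p = 0.316). In PHT it lay the other way, with 193 and 184 in doubles and 273, 247 and 230 in Ptpmt1 knockouts (-0.40 ± 0.15, adjusted p = 0.429) and 217 and 287 in Hri knockouts (-0.40 ± 0.16 for the double against the Hri knockout, adjusted p = 0.805). The oxoglutarate carrier Slc25a11 had 1016, 1052 and 974 normalized counts in FST doubles, 857, 847 and 996 in Ptpmt1 knockouts, 907, 961 and 956 in Eif2a mutants and 1029, 1026 and 963 in controls. Ptpmt1 knockouts 1 and 2 were the lowest of the table (double against Ptpmt1 knockout 0.18 ± 0.08, adjusted p = 0.358; interaction 0.27 ± 0.12, adjusted p = 0.684). Exons of Rnf167 overlap those of Slc25a11 by 189 bases. The dicarboxylate carrier Slc25a10 was at -0.23 ± 0.13 in FST knockouts, -0.11 ± 0.13 in PHT knockouts and 0.07 ± 0.16 in PTGC doubles. Slc25a21 was at -0.46 ± 0.50 in PHT knockouts and -0.40 ± 0.51 in PTGC doubles, from counts of 29.5 or less per library.

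Of the 11 carriers of amino acids and glutathione, 9 were tested in FST and PTGC and 10 in PHT, and 0 were called in any comparison. Slc25a13, the aspartate-glutamate carrier citrin, had 1514, 1275 and 1364 normalized counts in PTGC doubles, against 1659, 1581 and 2242 in controls. Every double was below every control and control 3 was the highest (-0.39 ± 0.13, adjusted p = 0.343). Slc25a12 (aralar), the form known from heart and brain, was at -0.08 ± 0.09 in the same comparison. In the Ptpmt1 knockout against control Slc25a12 was at -0.10 ± 0.09 in FST and -0.02 ± 0.09 in PHT, and Slc25a13 at 0.09 ± 0.08 and -0.12 ± 0.10. The glutathione carriers Slc25a39 and Slc25a40 were at 0.19 ± 0.15 and -0.18 ± 0.15 in PTGC doubles. Slc25a40 had 358, 388 and 348 normalized counts in PHT Ptpmt1 knockouts, against 285 and 311 in controls, without overlap (0.29 ± 0.12, adjusted p = 0.982). In FST the doubles, a different comparison, had 255, 261 and 278, against 197, 223 and 176 in controls, without overlap (0.42 ± 0.16, adjusted p = 0.409). The FST Ptpmt1 knockouts overlapped the controls for Slc25a40.

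Glutamate carrier Slc25a22 had 219 and 214 normalized counts in PHT doubles, against 262 and 284 in controls (-0.33 ± 0.16, adjusted p = 0.756). The PTGC doubles had 205, 248 and 241, against 230, 189 and 116 in controls, and the groups overlapped (0.42 ± 0.21, adjusted p = 0.458). The ornithine carrier Slc25a15 was at -0.06 ± 0.14, 0.08 ± 0.16 and -0.05 ± 0.13 in FST knockouts, PHT knockouts and PTGC doubles, and the branched-chain amino acid carrier Slc25a44 at -0.08 ± 0.14, 0.03 ± 0.13 and 0.15 ± 0.12. The glycine importer Slc25a38 was at -0.10 ± 0.20, -0.28 ± 0.17 and 0.01 ± 0.21, and had 205 and 152 normalized counts in PHT Hri knockouts, against 220 and 210 in controls (-0.28 ± 0.19, adjusted p = 1). Slc25a29, a carrier of basic amino acids, had 31.7, 9.58 and 13.6 in FST Eif2a mutants, against 9.87, 4.16 and 6.62 in controls, with the high value in the outlying mutant 1 (1.19 ± 0.51, adjusted p = 0.586). Slc25a2 had 10.8 and 21.9 in PHT doubles, against 3.78 and 9.34 in Hri knockouts (1.23 ± 0.63, adjusted p = 0.857).

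The acylcarnitine carrier Slc25a20, which admits fatty acids to beta-oxidation, was not called in any comparison. It had 475, 420 and 504 normalized counts in PTGC doubles, against 554, 501 and 533 in controls, and double 3 was within the control range (-0.19 ± 0.11, 95% interval -0.43 to 0.06). In the Ptpmt1 knockout against control it was at -0.08 ± 0.11 in FST (-0.31 to 0.15) and 0.07 ± 0.13 in PHT (-0.21 to 0.35).

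The relatives of the uncoupling proteins, Slc25a14, Slc25a27 and Slc25a30, were tested in each table and 0 were called. Slc25a27 had 158 and 151 normalized counts in PHT doubles, 189 and 223 in Hri knockouts and 147 and 151 in controls. Both Hri knockouts were above every other PHT library (Hri knockout against control 0.46 ± 0.17, adjusted p = 1; double against Hri knockout -0.41 ± 0.17, adjusted p = 0.845; interaction -0.57 ± 0.23, adjusted p = 0.998). Slc25a30 had 329 and 332 in the Hri knockouts, against 380 and 390 in controls (-0.22 ± 0.15, adjusted p = 1), and was at -0.28 ± 0.13 in PHT knockouts and -0.27 ± 0.14 in PTGC doubles against control. Slc25a14 was at 0.24 ± 0.26 in FST knockouts, -0.32 ± 0.26 in PHT knockouts and -0.01 ± 0.16 in PTGC doubles. Slc25a46, a member of the outer membrane involved in mitochondrial fission, had 880, 811 and 750 normalized counts in PTGC doubles, against 1010, 849 and 1135 in controls (-0.29 ± 0.12, adjusted p = 0.413). In FST it was at 0.26 ± 0.14 in the Ptpmt1 knockout against control (adjusted p = 0.445).

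Members given no class here were mostly low. Slc25a47, known from liver, had 120, 81.7 and 94.5 normalized counts in PTGC doubles, against 71.8, 69.0 and 58.7 in controls, without overlap (0.55 ± 0.19, adjusted p = 0.337). It was at 0.00 ± 0.21 in FST knockouts and -0.08 ± 0.24 in PHT knockouts. Slc25a45 had 21.6, 25.8 and 23.1 in FST Eif2a mutants, against 38.7, 39.1 and 32.3 in controls, without overlap (-0.62 ± 0.27, adjusted p = 0.595). Slc25a53 had 69.2 and 68.6 in PHT doubles, against 91.4 and 96.6 in controls (-0.44 ± 0.21, adjusted p = 0.756). Slc25a35 had 3.89, 0 and 7.03 in FST doubles, 10.3, 6.63 and 9.46 in Ptpmt1 knockouts, 25.4, 9.58 and 15.7 in Eif2a mutants and 8.23, 13.3 and 7.35 in controls, with the 0 in the shallow double 2. Its double was at -1.51 ± 0.70 against the Ptpmt1 knockout (adjusted p = 0.356), -2.30 ± 0.70 against the Eif2a mutant (0.540) and -1.60 ± 0.70 against control (0.451), and its interaction at -2.20 ± 0.99 (0.694). Exons of Rangrf, which had 50.9 to 204 normalized counts, overlap those of Slc25a35 by 1151 bases. Slc25a43 had 15.6, 26.5 and 12.9 in FST doubles and 0, 19.9 and 19.9 in Eif2a mutants (1.28 ± 0.89, adjusted p = 0.682), and the sign turned without mutant 1 (-0.18).

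Other carriers and channels of the mitochondrial membranes, a list of 26 genes with the Ucp, Mpc, Sfxn, Vdac, Abcb and calcium uniporter genes, were set beside them. Of 23 tested in FST and 24 in PHT and PTGC, 0 were called in any of the 13 comparisons by limma. In FST knockouts 3 had an unadjusted p under 0.05 (background 13.4%), in PHT knockouts 1 (4.79%) and in PTGC doubles 3 (11.5%), with log2 fold changes of the tested genes from -0.34 to 0.34, -0.27 to 0.19 and -0.38 to 0.23 in these comparisons. The stress response panel of Asns, Atf4, Atf5, Trib3 and Mthfd2 was called higher in 5 of 5 genes in FST knockouts, PHT knockouts and PTGC doubles against control, and lower in 5 of 5 in FST and PHT doubles against the Ptpmt1 knockout. Asns reached a log2 fold change of 2.36 ± 0.15, 2.14 ± 0.17 and 2.64 ± 0.11 in the first 3 of these.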

How the data were processed

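The authors deposited a normalized signal per gene and library in 3 tables. STAR 2.5.3a, DESeq2 1.12.4 and mm10 are named in the submitters' processing notes, without roles. The labels name no read counter, annotation or strandedness. Within a column the deposited signal values were multiples of 1 step, and dividing by it gave reads whole within 0.1 for 100% of values in each library. Tables were normalized separately, so tests stayed within a table. Columns without a sample numbered 0.

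limma 3.58.1 (R 4.3.3, intensity trend) was fitted on log2(value + 1) with all groups of a table, two-sided, for genes reaching 10 in enough libraries, with Benjamini-Hochberg adjustment. Values are means ± SD and log2 fold changes ± SE. edgeR 4.0.16 and DESeq2 1.42.0 on the recovered reads were alternatives, as were the pseudocount, filter, scaling, a sex term and left-out libraries. Exon lengths are unions of GENCODE exons. Named genes are called members, the 6 most abundant per table, the 3 lowest p per comparison without calls, all members of a described role class and fixed lists. Members and lists were chosen with earlier results of these data known. The values of 1 member are not reported here.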

Additional observations from a re-analysis of the deposited data

Results flagged for a closer look

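In 7 cases every library of 1 double lay above its control mean and every library of another line's double below it. These differences between lines were not tested, the tables were normalized separately, and none of the fold changes was called. Only members named for at least 1 of the comparisons, most of them for a low p, were searched. The share of all tested members or genes placed in this way was not computed, so the 7 cases have no background. Slc25a37 was at -0.13 in the FST double against control and 0.52 in the PHT double, which also stood opposite the PTGC double at -0.25. Slc25a40 was at 0.42 in the FST double and -0.18 in the PTGC double. Slc25a35 was at -1.60 in the FST double and 0.30 in the PTGC double, from low counts. Slc25a13 was at 0.078 in the FST double and -0.39 in the PTGC double. Slc25a22 was at -0.33 in the PHT double and 0.42 in the PTGC double. Slc25a5 was at 0.20 in the PHT double and -0.29 in the PTGC double.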

How the results depend on the processing

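The 13 counts of called members were recomputed under 187 alternatives, of which 177 kept the same count and 10 moved. The main count was 0 in every comparison except the PTGC double against control. There the 1 call, Slc25a33, was lost in 6 of 13 alternatives. Leaving out 1 library at a time gave 0 to 3 members in the FST Ptpmt1 knockout against control, 0 to 1 in the PHT double against the Ptpmt1 knockout and 0 to 1 in the PTGC double against control. Without FST control 3 and Ptpmt1 knockout 3 together, an alternative chosen after seeing the data, 3 members were called in the FST knockout. In PTGC no filter on low genes gave 0 and the sex term gave 0, because the adjusted p of Slc25a33 passed 0.05 with its log2 fold change at 0.89. Of 622 alternatives for 44 named fold changes, 606 kept direction and call, 11 changed the call and 5 turned the sign. Slc25a33 in the FST double against the Ptpmt1 knockout turned to 0.057 without both outlying libraries (double 2 and Eif2a mutant 1), 0.049 without Ptpmt1 knockout 3 and 0.057 without double 2, with a range of -0.35 to 0.057 over single libraries left out. Slc25a43 in the FST double against the Eif2a mutant turned to -0.46 without both and to -0.18 without Eif2a mutant 1, with a range of -0.18 to 2.02 over single libraries left out. The causes were not tested. No paired analysis was possible because replicate numbers were given in accession order, and the library numbers in the sample titles are each used once, with no label that ties a library of 1 group to one of another. Groups of 2 or 3 libraries limit every comparison, and the FST double 2, with 1887978 reads, limits the low members in that line.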
